A study of Arabidopsis thaliana with 11 samples.

Results

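NRT1.7 (AT1G69870, also called NPF2.13) is a nitrate transporter of the leaf phloem, and it is described here across 4 Arabidopsis thaliana genotypes together with 9 other genes that move or reduce nitrate. NRT1.7 was chosen by its measured fall in the cpr5 mutant against wild type in an earlier analysis of the same libraries, and the other members were taken for their function with those results known. The 10 genes are NRT1.7, NRT1.1 (AT1G12110), NRT1.5 (AT1G32450), NRT1.8 (AT4G21680), NRT1.9 (AT1G18880), NRT2.1 (AT1G08090), NRT2.4 (AT5G60770), NRT2.5 (AT1G12940), NIA1 (AT1G77760) and NIA2 (AT1G37130). Of these, 9 have a line among the 22160 genes of the count table, all 9 passed the low-count filter that kept 21580 genes, and NRT2.4 has no line there.

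Transcripts of whole, untreated 10-day-old seedlings on 1/2 MS medium with 1% sucrose were read by strand-specific mRNA sequencing. The groups were Col-0 wild type (n = 3), the single mutant xpo4-2 (n = 2), the single mutant cpr5 (n = 3) and the double mutant xpo4-2 cpr5 (n = 3). XPO4 is the gene of exportin-4, which carries cargo between nucleus and cytosol, and CPR5 makes a nuclear pore membrane protein whose loss switches on defence. Whether replicates are separate plates or sowings is not in the labels, and the spread behind the p-values is that between these libraries, which may be technical.

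Plants take nitrate up at the root surface through NRT1.1 and the high-affinity NRT2 proteins. NRT1.5 loads it into the root xylem and NRT1.8 takes it back out of the xylem sap, while NRT1.7 loads it into the phloem of old leaves and NRT1.9 into the phloem of roots. Nitrate is then reduced to nitrite by the nitrate reductases NIA1 and NIA2 in the cytosol, to ammonium by nitrite reductase in the plastid, and built into glutamine and glutamate there.

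Library totals ran from 16922732 to 23088104 counts, so that 1 count equals 0.0433 to 0.0591 CPM, the count relative to the library total, before scaling. CPM values are scaled with TMM factors, and TPM, which also accounts for transcript length, is used where genes are compared with each other. XPO4 stood at 21.5 ± 1.94 CPM (SD, n = 3) in wild type and 23 ± 4.7 in cpr5 (n = 3), against 2.9 ± 2.68 in xpo4-2 (n = 2) and 1.46 ± 1.26 in the double mutant (n = 3). The CPR5 transcript was not lower in cpr5 (16.1 ± 1.5 CPM) than in wild type (10.9 ± 2.65), so its level is no check on which libraries carry that mutation.

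NRT1.7 nearly vanished from both single mutants and was present at a wild-type range of levels in the double mutant. It stood at 180, 261 and 233 CPM in the wild-type libraries, at 1.45 and 2.49 in xpo4-2, at 11.3, 10.9 and 10.9 in cpr5, and at 211, 109 and 233 in xpo4-2 cpr5. Every single-mutant library lay below every wild-type and double mutant library, the xpo4-2 libraries lay below the cpr5 libraries, and the wild-type and double mutant ranges overlapped. These levels rest on 2981, 4335 and 4428 counts in the wild-type libraries, 26 and 56 in the xpo4-2 libraries, 211, 210 and 181 in the cpr5 libraries, and 4626, 2142 and 5740 in those of the double mutant. In bulk seedlings, fewer cells that express a gene and less RNA per cell cannot be told apart.

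**Figure D1:**
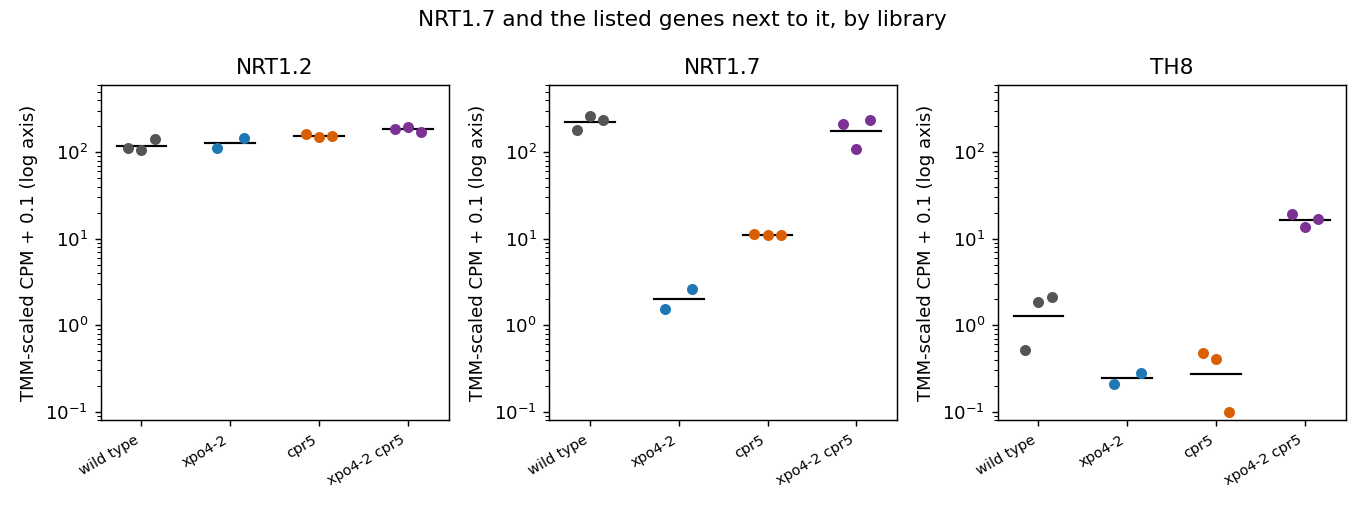
Level of NRT1.7 and of the listed genes nearest to it with a line in the count table on either side, as TMM-scaled CPM plus 0.1 on a log axis; points are libraries and bars are means on the log scale. NRT1.7 lies at 1.45 to 11.3 CPM in the single mutants and at 109 to 261 in wild type and the double mutant; NRT1.2 lies above 100 CPM in every library, and TH8 is high in the double mutant.

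In xpo4-2 against wild type NRT1.7 fell 112-fold (a log2 fold change of -6.81 with an SE of 0.422; edgeR quasi-likelihood test, Benjamini-Hochberg adjusted p = 0.00018; lower in 2 of 2 libraries), the smallest p of the 21580 genes. The fall in cpr5 against wild type was 20.4-fold (a log2 fold change of -4.35), and since it chose the gene it is given with no test. Adding xpo4-2 to cpr5 raised NRT1.7 16.7-fold (a log2 fold change of 4.06 with an SE of 0.3, adjusted p = 6.02e-05 by edgeR; higher in 3 of 3 libraries). Adding cpr5 to xpo4-2 raised it 92.1-fold (6.53, SE 0.417, adjusted p = 2.49e-05 by edgeR; higher in 3 of 3 libraries), in the comparison that uses none of the libraries that chose the gene. The other comparisons share wild-type or cpr5 libraries with the choosing one.

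The double mutant did not differ from wild type beyond the spread of the libraries (a log2 fold change of -0.29 with an SE of 0.261, adjusted p = 0.42 by edgeR), which does not show that their levels are equal. The interaction asks whether xpo4-2 acts differently in cpr5 than in wild type, and is the effect in cpr5 minus the effect in wild type. For NRT1.7 it was 10.87 on the log2 scale: xpo4-2 lowered the transcript by 6.81 log2 units in wild type and raised it by 4.06 in cpr5. This difference contains the fall in cpr5 against wild type that chose the gene, so it too is given with no test. The calls of NRT1.7 in xpo4-2 against wild type and in the double mutant against either single mutant held in each of 21 alternative settings, 11 of which left out 1 library.

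The deposited transcript table lists 1 transcript of NRT1.7, AT1G69870.1, so no shift between its isoforms can be seen. Its TPM was 69.5, 103 and 98.4 in wild type, 0.555 and 1.06 with xpo4-2 alone, 4.48, 4.6 and 4.83 with cpr5 alone, and 113, 55.5 and 131 with both mutations. As in the counts, every single-mutant library lay below every wild-type and double mutant library, and both sets of values come from the same reads. Tested with limma on log2(TPM + 0.5) over 51700 transcripts, the transcript differed by -6.12 in xpo4-2 against wild type (adjusted p = 0.000114), by 4.2 from cpr5 to the double mutant (adjusted p = 0.000199) and by 6.2 from xpo4-2 to the double mutant (adjusted p = 1.24e-05). The table also holds 17151 assembled models that the files tie to no gene, and reads given to such a model cannot be told apart from a loss of transcript. In a check chosen after the values were seen, 3 of the 17151 models were at least 50 TPM higher in every single-mutant library than in any wild-type or double mutant library, and those already stood at 151 TPM or more in every wild-type library. A gain spread over several models, or in a longer model, could be under 50 TPM and would be missed by this check.

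Phloem markers did not follow NRT1.7. The summed level of 7 phloem markers, among them the sucrose loader SUC2 and the phloem protein PP2-A1, ran from 341 to 484 CPM in the wild-type libraries, 353 to 475 in the xpo4-2 libraries, 354 to 470 in the cpr5 libraries, and 280 to 355 in those of the double mutant. The single mutants, with little NRT1.7, had phloem marker sums within the wild-type range, and none of the 7 was at 0 in all libraries of a genotype. In the double mutant against wild type 1 of the 7 was higher and 2 were lower, where 37.1% of all genes passed. In the double mutant compared with cpr5, 3 of the 7 were lower and 0 higher (21.7% of all genes passed), with a median log2 fold change of -0.56, while NRT1.7 was higher.

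NRT1.7 lies on chromosome 1 from 26315787 to 26320233 on the forward strand of TAIR10.1, with 4 exons and a coding sequence of 1863 bases. The nearest upstream gene with a line in the count table is NRT1.2, a low-affinity nitrate transporter 15102 bases away, and the nearest downstream gene is TH8, a thioredoxin 1164 bases away. NRT1.2 had mean levels of 120, 129, 156 and 183 CPM in wild type, xpo4-2, cpr5 and the double mutant, so it did not follow NRT1.7. TH8 stood at 0.422, 1.74 and 2 CPM in wild type, 0.111 and 0.178 with xpo4-2 alone, 0.374, 0.311 and 0 with cpr5 alone, and 19.1, 13.7 and 17 with both mutations. The double mutant lay above all other libraries for TH8, with 420, 271 and 418 counts. Elsewhere TH8 was near the limit of detection. The wild-type libraries held 7, 29 and 38 of its counts, the xpo4-2 libraries 2 and 4, and the cpr5 libraries 7, 6 and 0. Wild-type replicate 1 and cpr5 replicate 1 held 7 counts each and differ in CPM only by library scaling. A lower TH8 level in the single mutants than in wild type is therefore not settled.

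TH8 rose in the double mutant against xpo4-2, as NRT1.7 did (a log2 fold change of 6.76 with an SE of 0.957, adjusted p = 0.000545 by edgeR, higher in 3 of 3 libraries). TH8 also rose against wild type (3.57, SE 0.643, adjusted p = 0.00157 by edgeR), where NRT1.7 did not pass. Its log2 fold change in xpo4-2 against wild type was -3.19 and did not pass (adjusted p = 0.0921 by edgeR), and its interaction was 9.3 (SE 1.19, adjusted p = 0.00254 by edgeR). The remaining neighbours, 2 upstream and 2 downstream, had group means of 111 to 279 CPM for AMY3, 224 to 555 for AT1G69840, 74.3 to 212 for AT1G69890 and 44.9 to 53.2 for AT1G69900. AMY3, AT1G69840 and AT1G69890 were lowest in the double mutant, where NRT1.7 was high.

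The 300 bases before the annotated start are shown for NRT1.7 and for the other members that passed the test in at least 1 comparison and whose calls against wild type in the double mutant held without any 1 library. They are RefSeq sequence of TAIR10.1, written 5′ to 3′ on the gene's own strand. Capitals mark 2 short motifs searched on both strands, the W-box core TTGAC (read as GTCAA on the other strand), bound by WRKY factors, and GAATC (read as GATTC on the other strand), bound by the HHO repressors of nitrate response. The windows are chr1:26315487-26315786 on the forward strand for NRT1.7, chr1:11719989-11720288 on the reverse strand for NRT1.5, chr1:29239485-29239784 on the reverse strand for NIA1 and chr1:14158152-14158451 on the forward strand for NIA2.
NRT1.7: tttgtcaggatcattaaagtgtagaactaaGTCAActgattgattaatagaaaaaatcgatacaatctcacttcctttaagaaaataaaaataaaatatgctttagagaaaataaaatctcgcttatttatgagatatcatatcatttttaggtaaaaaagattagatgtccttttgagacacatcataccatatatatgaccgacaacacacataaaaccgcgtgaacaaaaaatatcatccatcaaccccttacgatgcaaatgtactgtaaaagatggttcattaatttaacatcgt
NRT1.5: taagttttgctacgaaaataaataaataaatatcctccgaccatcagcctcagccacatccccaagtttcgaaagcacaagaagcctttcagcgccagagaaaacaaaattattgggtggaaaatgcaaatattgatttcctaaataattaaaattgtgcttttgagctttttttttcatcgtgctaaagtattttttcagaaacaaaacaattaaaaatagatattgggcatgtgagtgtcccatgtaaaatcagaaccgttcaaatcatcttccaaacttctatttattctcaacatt
NIA1: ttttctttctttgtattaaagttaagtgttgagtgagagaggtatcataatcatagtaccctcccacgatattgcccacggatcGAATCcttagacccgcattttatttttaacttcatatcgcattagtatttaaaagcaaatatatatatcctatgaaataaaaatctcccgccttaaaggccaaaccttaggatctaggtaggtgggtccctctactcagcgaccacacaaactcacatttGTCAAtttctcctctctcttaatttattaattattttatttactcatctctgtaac
NIA2: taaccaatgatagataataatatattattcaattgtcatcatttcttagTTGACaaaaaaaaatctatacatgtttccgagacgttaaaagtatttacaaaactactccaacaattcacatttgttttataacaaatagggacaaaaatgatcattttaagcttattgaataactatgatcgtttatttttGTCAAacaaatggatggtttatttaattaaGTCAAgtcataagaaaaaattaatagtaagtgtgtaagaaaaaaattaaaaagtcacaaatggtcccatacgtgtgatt

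TTGAC occurred in 7 of the 10 members' windows and in 50.4% of 27443 gene windows of the same length, and GAATC in 4 of 10 and in 45%. NRT1.7 holds TTGAC once, NIA1 holds TTGAC and GAATC once each, NIA2 holds TTGAC 3 times, and NRT1.5 holds neither. TGACG, bound by TGA factors, occurred in 2 members, NRT1.8 and NRT2.1, where it overlaps a TTGAC, and in 21.3% of all windows. The G-box CACGTG (7.09% of windows) and CTT and AAG set 10 bases apart, as bound by NLP factors (9.71%), occurred in none of the 10. A match is only a description of the letters.

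Among genes with a nitrate or peptide transporter (NPF) name in the reference table, 27 in number with 23 tested, NRT1.7 had the smallest p in xpo4-2 against wild type, and in the double mutant against either single mutant. In the double mutant against wild type it was the 19th. This family was looked at after the values were seen. Only the comparison of the double mutant with xpo4-2 uses none of the libraries that chose NRT1.7. The ranks of NRT1.7 in the other comparisons are only descriptions. The interaction log2 value of the other 22 tested members ran from -2.81, that of NRT1.5, to 3.23.

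The genes whose log2(CPM + 0.5) followed NRT1.7 most closely over the 11 libraries were AT1G80130 (Pearson r = 0.975), LARP1c, a La-related RNA-binding protein (0.967), BLH1, a BEL1-like homeodomain factor (0.955), AT3G13224 (0.948) and AT3G52530 (0.946). AT2G41840 and AT5G22920 had the lowest r, both -0.944. The 11 libraries share their genotypes, and these values are descriptions. A high r does not mean a change of like size. Mean CPM in wild type, xpo4-2, cpr5 and the double mutant was 224, 1.97, 11 and 184 for NRT1.7. The same means were 16.2, 3.11, 6.15 and 20.6 for AT1G80130, and 84.4, 60.1, 62.4 and 81.9 for LARP1c. They were 100, 70, 77.9 and 99.7 for BLH1, 56.1, 38, 42.3 and 56.3 for AT3G13224, and 4.19, 1.93, 2.7 and 4.35 for AT3G52530. Among the members r with NRT1.7 ran from -0.677 for NRT1.5 to 0.537 for NRT2.5.

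NRT1.5, the loader of the root xylem, was low in wild type and higher in every mutant. Its level was 6.57, 12.4 and 8.16 CPM in the wild-type libraries, 31 and 79.1 in the xpo4-2 libraries, 30.4, 36.9 and 35.9 in the cpr5 libraries, and 36.6, 30.5 and 22.6 in those of the double mutant. No wild-type library reached the lowest mutant library, and the 3 mutant genotypes overlapped apart from the high xpo4-2 replicate 2. In xpo4-2 against wild type NRT1.5 rose 6.1-fold (a log2 fold change of 2.61 with an SE of 0.374, adjusted p = 0.00989 by edgeR; higher in 2 of 2 libraries). That call was lost without xpo4-2 replicate 2 (a log2 fold change of 1.78, adjusted p = 0.0667) and in a fit of only these groups (adjusted p = 0.129). In the double mutant against wild type it rose 3.31-fold (1.73, SE 0.345, adjusted p = 0.00288 by edgeR; higher in 3 of 3 libraries), and the log2 fold change in cpr5 was 1.93, given with no test. With NRT1.7 left untested, NRT1.5 was the 1 member with an interaction that passed (8.71% of all genes did). It was -2.81 (SE 0.498, adjusted p = 0.00856 by edgeR), with an effect of xpo4-2 of 2.61 in wild type and -0.2 in cpr5. This interaction contains the value of NRT1.5 in cpr5 against wild type. NRT1.5 was taken for its function, but with results of that comparison known.

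NRT1.8, which unloads the xylem, ran the other way. It stood at 90.2, 121 and 172 CPM in wild type, 66 and 53.6 with xpo4-2 alone, 60.5, 58.9 and 61.7 with cpr5 alone, and 82.9, 78 and 30.4 with both mutations. All 8 mutant libraries were below the lowest wild-type library, and double mutant replicate 3 was the lowest of all. Its fall in the double mutant against wild type (a log2 fold change of -1 with an SE of 0.334, adjusted p = 0.0367 by edgeR; lower in 3 of 3 libraries) is not firm. It was lost without any of 6 single libraries, where the highest adjusted p was 0.116 (wild-type replicate 3 left out) and that without double mutant replicate 3 was 0.0538. It was also lost without scaling (0.099), with only these groups in the fit (0.0999) and with limma on log2(TPM + 0.5) (0.147). In xpo4-2 its log2 fold change was -1.09 (adjusted p = 0.157 by edgeR), and it passed by DESeq2 (0.0454) and without double mutant replicate 3 (0.0388). Without that replicate its interaction passed too (1.52, adjusted p = 0.0264).

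NRT1.9, the phloem loader of roots, stood at 2.41, 5.59 and 7.63 CPM in the wild-type libraries, 3.78 and 15.3 in the xpo4-2 libraries, 7.2, 8.96 and 10.2 in the cpr5 libraries, and 13.7, 14.1 and 15.2 in those of the double mutant. The double mutant libraries lay above all wild-type and cpr5 libraries, while the xpo4-2 libraries lay far apart. Its rise in the double mutant against wild type (a log2 fold change of 1.46 with an SE of 0.487, adjusted p = 0.037 by edgeR; higher in 3 of 3 libraries) was lost without any of 8 of the 11 libraries, up to an adjusted p of 0.0937 without wild-type replicate 1.

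Root markers also differed between libraries. The sum of 13 root markers was 4.76, 23.3 and 30.7 CPM in wild type, 26.1 and 47.5 with xpo4-2 alone, 29.7 to 39.5 with cpr5 alone, and 52.8 to 67.5 with both mutations. Wild-type replicate 1 had the lowest sum and the lowest NRT1.5 and NRT1.9, and xpo4-2 replicate 2 was the higher xpo4-2 library for NRT1.5, NRT1.9 and the root sum. None of the 13 was at 0 in all libraries of a genotype, and 5 of 13 rose and none fell in the double mutant against wild type, where 18.1% of all genes were higher and 19.1% lower. In xpo4-2 and in cpr5 against wild type 1 of 13 passed in each, higher, where 0.755% and 4.30% of all genes were higher. In the double mutant 0 of 13 passed against cpr5 or against xpo4-2, where 21.7% and 28.7% of all genes did. The sum of 4 xylem markers was 37.1 to 53.8 CPM in the wild-type libraries, 52.8 to 87.8 in the xpo4-2 libraries, 63.1 to 109 in the cpr5 libraries, and 43.5 to 67.9 in those of the double mutant. The part of root or xylem content in the levels of NRT1.5, NRT1.8 and NRT1.9 was not tested.

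**Figure D2:**
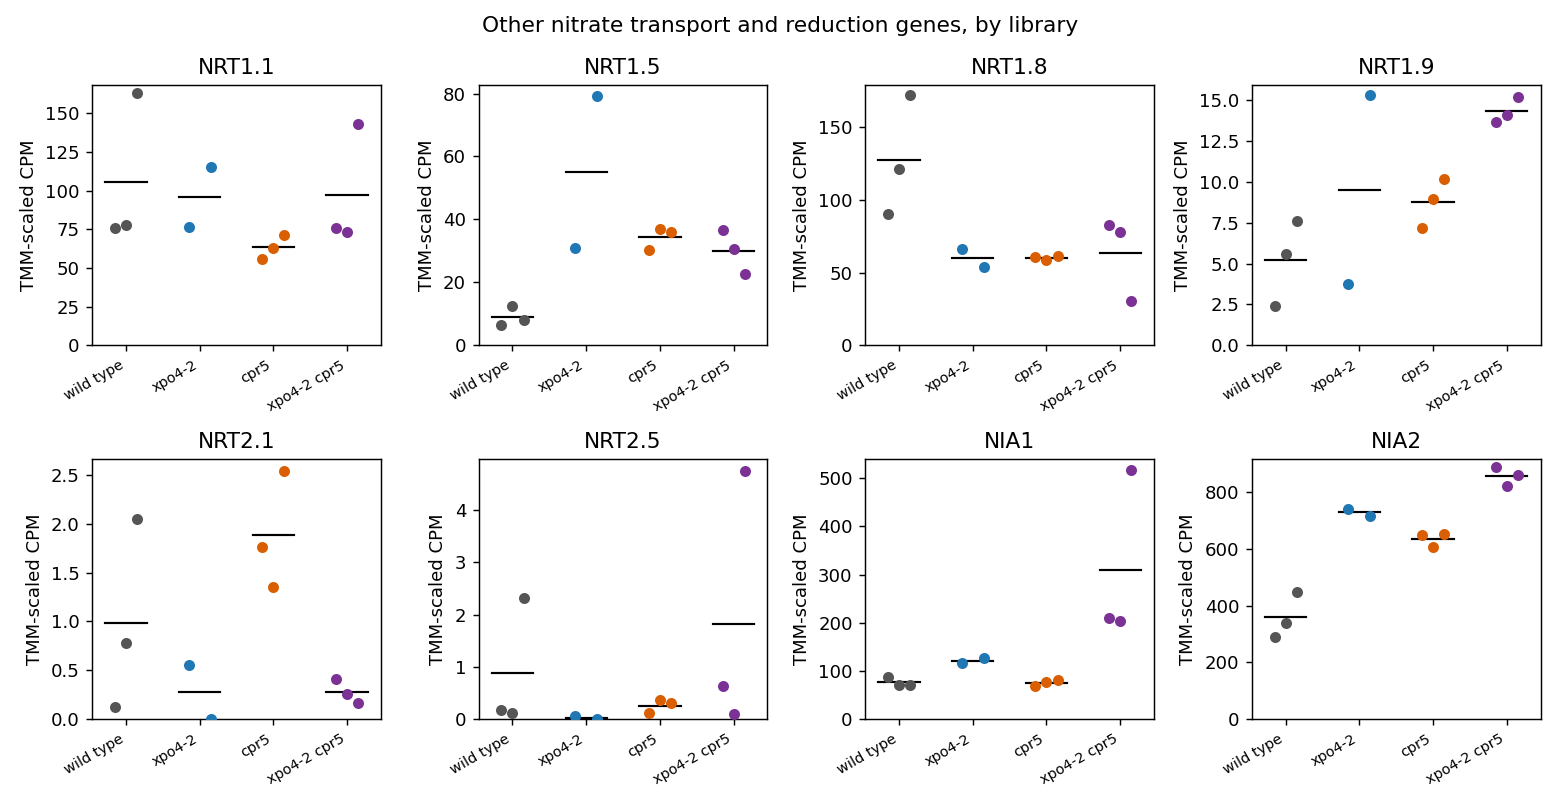
Level of the other 8 members with a line in the count table, as TMM-scaled CPM on linear axes from 0; points are libraries and bars are group means. NRT1.5 is lowest and NRT1.8 highest in wild type, NIA2 is at 607 CPM or more in every mutant library, and NIA1 reaches 518 CPM in 1 double mutant library.

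The uptake transporters did not pass in any tested comparison by edgeR with all libraries. NRT1.1, which also senses nitrate, stood at 76.1, 77.7 and 163 CPM in wild type, 76.5 and 115 with xpo4-2 alone, 55.5, 63 and 71.5 with cpr5 alone, and 75.6, 73 and 143 with both mutations. All cpr5 libraries were below all others, with a log2 fold change against wild type of -0.74 given with no test, and the other groups overlapped. From cpr5 to the double mutant NRT1.1 differed by 0.62 (SE 0.339, adjusted p = 0.229 by edgeR).

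The high-affinity transporters were near the limit of detection. NRT2.1, the main high-affinity uptake system, had 2, 13 and 39 counts in the wild-type libraries, 10 and 0 in the xpo4-2 libraries, 33, 26 and 42 in the cpr5 libraries, and 9, 5 and 4 in those of the double mutant. Its cpr5 libraries lay above the double mutant libraries, a difference that did not pass (a log2 fold change of -2.75, adjusted p = 0.105 by edgeR, with 0.0472 by DESeq2 and 0.00696 with only these groups in the fit). NRT2.1 closely resembles NRT2.2 in sequence, and the counting of reads that match both was not given in the sources used here.

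NRT2.5, which is induced by long nitrogen starvation, had 3, 2 and 44 counts in wild type, 1 and 0 with xpo4-2 alone, 2, 7 and 5 with cpr5 alone, and 14, 2 and 117 with both mutations. A single library held most of the counts in wild type and in the double mutant, so its group means describe 1 library each. By DESeq2 it passed in the double mutant against xpo4-2 (adjusted p = 0.0111) and in the interaction (adjusted p = 0.0147), from these few counts. NRT2.4, another starvation-induced transporter, was listed at 0 TPM in every library except cpr5 replicate 1, where it was at 0.0282.

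NIA2, which carries most nitrate reductase activity in seedlings, was higher in every mutant. It stood at 291, 340 and 447 CPM in the wild-type libraries, 741 and 716 in the xpo4-2 libraries, 648, 607 and 652 in the cpr5 libraries, and 888, 821 and 861 in those of the double mutant. The 4 genotypes did not overlap, in the order wild type, cpr5, xpo4-2 and double mutant. NIA2 rose 2.38-fold in the double mutant against wild type (a log2 fold change of 1.25 with an SE of 0.152, adjusted p = 0.000158 by edgeR; higher in 3 of 3 libraries), and the cpr5 value, given with no test, was 0.82. In xpo4-2 it rose 2.03-fold (1.02, SE 0.165, adjusted p = 0.0147 by edgeR; higher in 2 of 2 libraries). That call was lost without wild-type replicate 2 (0.0517), xpo4-2 replicate 1 (0.076) or xpo4-2 replicate 2 (0.0858), and with only these groups in the fit (0.169).

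The step from cpr5 to the double mutant was 0.43 for NIA2 and did not pass (SE 0.15, adjusted p = 0.0645 by edgeR). It passed without wild-type replicate 1 (0.0291) or 3 (0.0157), by DESeq2 (0.019), with only these groups in the fit (0.0153), without scaling (0.69, adjusted p = 0.0114) and with limma on log2(TPM + 0.5) (0.77, adjusted p = 0.00687). Without scaling, the all-gene median of that comparison is 0.273 in place of 0.014 on the log2 scale, and with limma on log2(TPM + 0.5) it is 0.298.

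NIA1, the other nitrate reductase, was highest where both mutations were present. Its level was 88.2, 69.7 and 70.8 CPM in wild type, 116 and 127 with xpo4-2 alone, 67.7, 77.7 and 80.2 with cpr5 alone, and 210, 203 and 518 with both mutations. Double mutant libraries lay above all others, replicate 3 far above its group, and wild type and cpr5 overlapped. NIA1 rose 4.12-fold against cpr5 (a log2 fold change of 2.04 with an SE of 0.319, adjusted p = 0.00162 by edgeR) and 4.07-fold against wild type (2.02, SE 0.319, adjusted p = 0.000714 by edgeR), higher in 3 of 3 libraries in each. Against xpo4-2 the rise of 2.54-fold (1.35, SE 0.359, adjusted p = 0.0174 by edgeR) was lost without xpo4-2 replicate 1 (0.118) or replicate 2 (0.071) and with only these groups in the fit (0.0638). The interaction of 1.37 did not pass (adjusted p = 0.103 by edgeR), and passed without double mutant replicate 3 (0.79, adjusted p = 0.0386) and by DESeq2 (adjusted p = 0.0257), so a different effect of xpo4-2 in the 2 backgrounds is not settled for NIA1. The xpo4-2 value against wild type was 0.68 (adjusted p = 0.319 by edgeR, and 0.0285 without double mutant replicate 3).

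The balance of the nitrate reductases differed between genotypes. The ratio of NIA2 to NIA1 in TPM was 3.04, 4.49 and 5.82 in the wild-type libraries, 5.85 and 5.17 in the xpo4-2 libraries, 8.83, 7.2 and 7.46 in the cpr5 libraries, and 3.88, 3.71 and 1.52 in those of the double mutant. All cpr5 libraries lay above all others, and the double mutant overlapped wild type. The sum of both was 102, 111 and 149 TPM in wild type, 225 and 244 with xpo4-2 alone, 193, 197 and 219 with cpr5 alone, and 402, 358 and 535 with both mutations. TPM are not scaled with TMM, which bears on this sum between genotypes. On log2(TPM + 0.5) the all-gene median of the double mutant was 0.396 against wild type and 0.298 against cpr5, where scaled counts gave 0.032 and 0.014. NIA1 and NIA2 are similar genes, and reads that match both could shift this ratio.

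**Figure D3:**
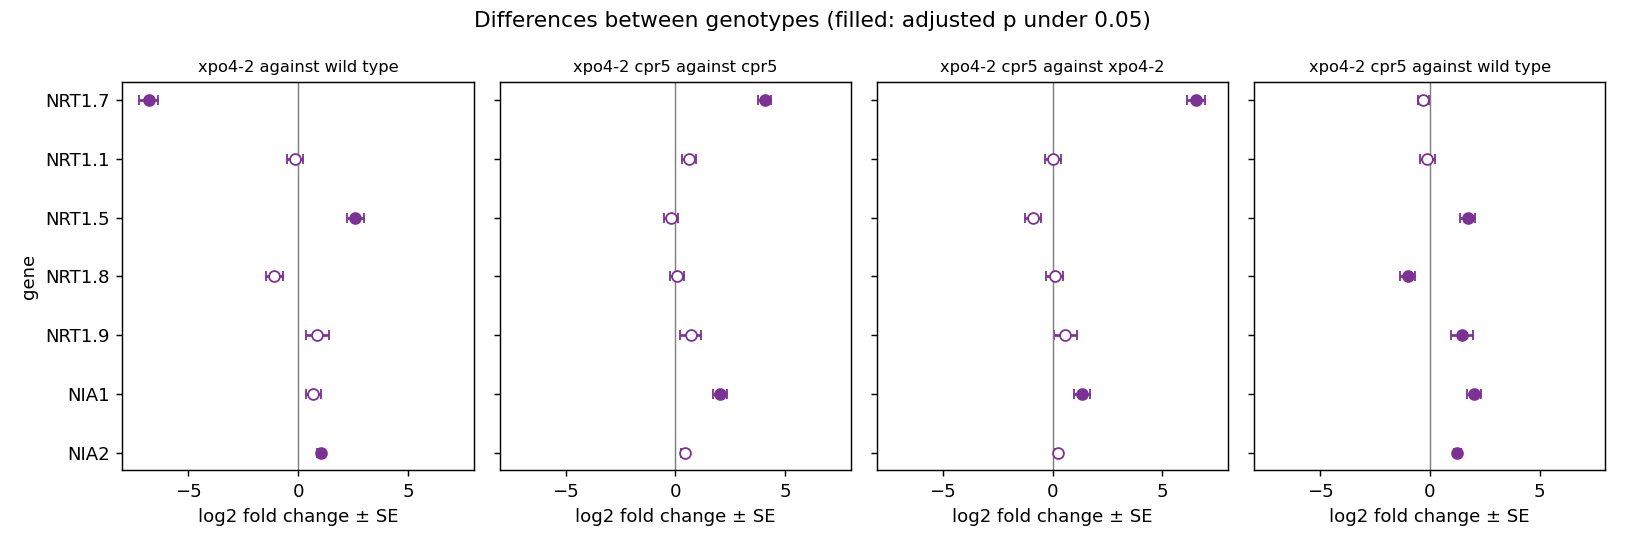
Log2 fold change with its SE for the 7 members above the limit of detection, in the 4 tested comparisons between genotypes; filled points passed at an adjusted p under 0.05 by edgeR. NRT1.7 lies at -6.81 in xpo4-2 and near 0 in the double mutant against wild type, and NIA1 passes in the 3 comparisons that hold the double mutant.

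Counted together, 3 of the 9 members passed in xpo4-2 against wild type (NRT1.5 and NIA2 higher, NRT1.7 lower), where 2.72% of all genes did (0.755% higher and 1.96% lower). In the double mutant against wild type 5 of 9 passed (NRT1.5, NRT1.9, NIA1 and NIA2 higher, NRT1.8 lower), where 37.1% of all genes did (18.1% higher and 19.1% lower). Against cpr5, 2 of 9 passed (NRT1.7 and NIA1, both higher), that is 22.2% beside 21.7% of all genes (8.82% higher and 12.9% lower). Against xpo4-2, NRT1.7 and NIA1 were higher too, 22.2% beside 28.7% of all genes (13.2% higher and 15.5% lower). These counts of 2 genes are near or below the shares of all genes that passed. The members' median log2 fold change was -0.14 in xpo4-2, 1.06 in the double mutant against wild type, 0.62 against cpr5 and 0.23 against xpo4-2, where the medians of all genes were 0.019, 0.032, 0.014 and 0.03.

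Per length, NIA2 was the most abundant member in every genotype. In wild type it stood at 98 TPM (76.4 to 127), followed by NRT1.7 at 90.2 (69.5 to 103), NRT1.8 at 63 (41.9 to 89.1) and NRT1.1 at 47 (32.3 to 75.1), neighbours whose ranges overlap. NIA1 at 22.4 (20.2 to 25.1) and NRT1.5 at 3.97 (2.76 to 5.37) came next and overlapped neither each other nor NRT1.1. Among the transporters that are members, NRT1.7 had the highest mean in wild type and in the double mutant. In the double mutant NRT1.7 stood at 99.9 (55.5 to 131) above NRT1.1 at 57.1 (40.6 to 86.7), with ranges that overlap. In xpo4-2 it was 7 of 10 in the order, at 0.806 TPM, and in cpr5 it was level with NRT1.9, at 4.63 against 4.62.

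Downstream of nitrate reductase, genes moved in both directions in the double mutant. Of 18 genes of nitrite and ammonium assimilation, 6 rose and 4 fell there against wild type (37.1% of all genes passed), with a median log2 fold change of 0.23 against 0.032 for all genes. RFNR1 was among those that rose, and those that fell were GLN2, GLU1, NIR1 and UPM1. Genes were picked by smallest p, so the named genes do not show the balance of rises and falls. GLN2, the plastid glutamine synthetase, stood at 930 to 1230 CPM in the wild-type libraries, 1430 and 1250 in the xpo4-2 libraries, 913 to 991 in the cpr5 libraries, and 410 to 497 in those of the double mutant. GLN2 differed by -1.32 from wild type, by -1.08 from cpr5 (SE 0.144, adjusted p = 0.000686 by edgeR) and by -1.57 from xpo4-2, lower in 3 of 3 libraries each time. GLU1, the ferredoxin glutamate synthase, ran from 249 to 346 CPM in the double mutant and from 553 to 848 in all other libraries. It differed by -1.26 from wild type and by -0.92 from cpr5 (adjusted p = 0.00394 by edgeR). The glutamate synthases GLU2 and GLT1 stood higher in the double mutant than in wild type, given here with no test. GLU2 ran from 74.2 to 91.7 CPM in the double mutant and from 8.92 to 33.9 in wild type. GLT1 ran from 226 to 298 CPM in the double mutant, 165 to 183 in wild type and 246 to 283 in xpo4-2. UPM1, which makes the siroheme cofactor of nitrite reductase, differed by -0.96 from wild type and by -0.69 from cpr5 (adjusted p = 0.00169 by edgeR).

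NIR1, nitrite reductase itself, stood at 190, 200 and 147 CPM in wild type, 266 and 261 with xpo4-2 alone, 93.3, 122 and 106 with cpr5 alone, and 95.4, 86.4 and 68.9 with both mutations. The xpo4-2 libraries were the highest, and cpr5 and the double mutant overlapped. NIR1 fell by 1.1 on the log2 scale in the double mutant against wild type (adjusted p = 0.000492 by edgeR), where NIA1 and NIA2 rose. Against xpo4-2 NIR1 fell by 1.66 (SE 0.178, adjusted p = 0.000137 by edgeR), where NIA2 did not pass (0.23, adjusted p = 0.336 by edgeR). RFNR1, a root-type ferredoxin reductase that feeds electrons to nitrite reductase in non-green plastids, ran from 46.4 to 54.6 CPM in the double mutant and from 17.1 to 29.6 elsewhere, a rise of 2.17-fold against cpr5 (adjusted p = 0.00255 by edgeR). The calls of GLN2, GLU1, UPM1, NIR1 and RFNR1 given in these paragraphs held in each alternative.

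**Figure D4:**
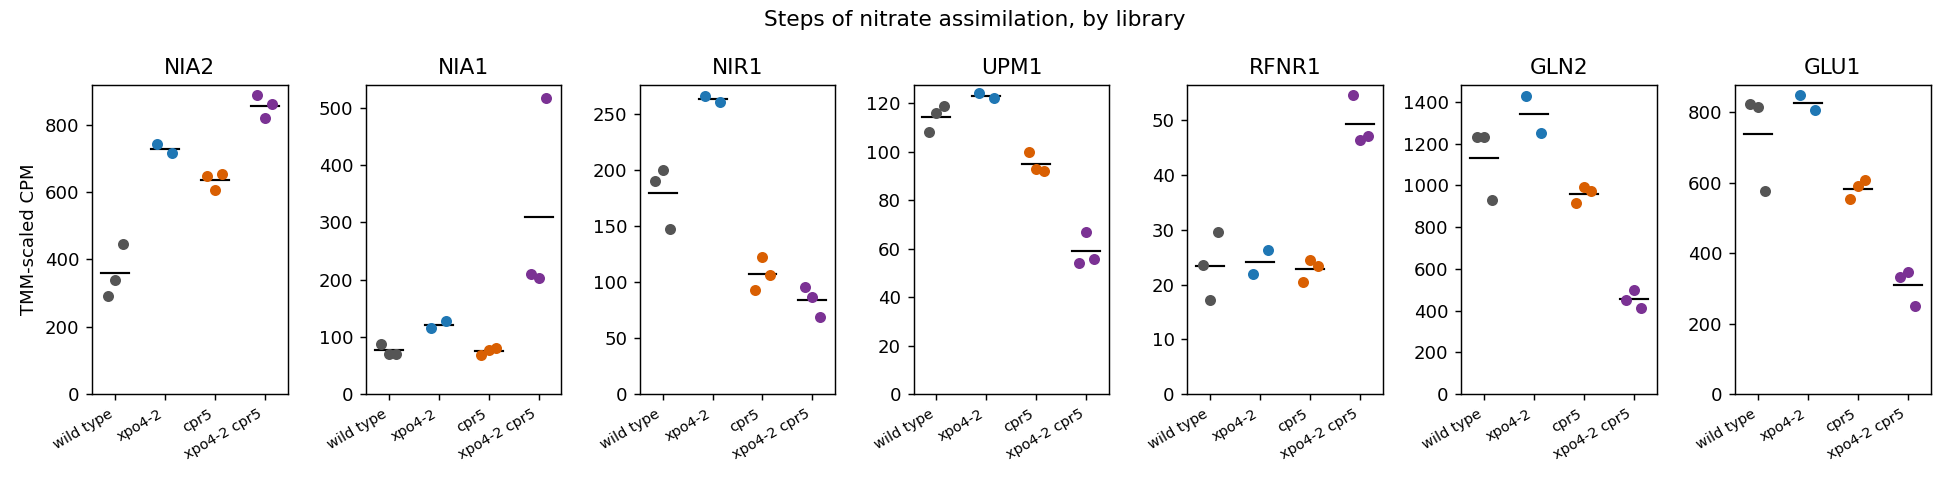
Genes of nitrate reduction and of the later steps, as TMM-scaled CPM on linear axes from 0; points are libraries and bars are group means. NIA2, NIA1 and RFNR1 are highest in the double mutant, where UPM1, GLN2 and GLU1 are lowest; NIR1 is lowest in cpr5 and the double mutant, which overlap.

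Over the 5 nitrogen lists together, 77 genes with 73 tested, the shares passing were 5.48% in xpo4-2 and 8.22% in cpr5 against wild type (2.72% and 6.64% of all genes), 38.4% in the double mutant against wild type, 21.9% against cpr5 and 32.9% against xpo4-2 (37.1%, 21.7% and 28.7%). In the interaction 1 was higher and 10 were lower of 73, that is 15.1% beside 8.71% of all genes. The share of all genes was not split by direction there. Only the interaction call of GLN2 held in each alternative, and the other 10 were lost in 4 to 13 of them. In cpr5 against wild type 4.30% of all genes were higher and 2.34% lower.

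Among 15 other nitrate transporters tested, 2 rose and 4 fell in the double mutant against wild type. Of all genes 37.1% passed there (18.1% higher and 19.1% lower). NRT2.7, a vacuolar nitrate transporter known from seeds, stood at 107, 98.1 and 66.6 CPM in the wild-type libraries, 44.6 and 41.8 in the xpo4-2 libraries, 60.4, 58.8 and 61.9 in the cpr5 libraries, and 26.9, 26.3 and 30 in those of the double mutant, so no genotypes overlapped. It differed by -1.7 in the double mutant against wild type (SE 0.163, adjusted p = 4.37e-05 by edgeR) and was 2.18-fold lower than in cpr5 (adjusted p = 0.00102 by edgeR). NRT3.1, the partner protein that NRT2 transporters need, differed by 1.65 against wild type (SE 0.28, adjusted p = 0.00114 by edgeR) and by 1.8 against xpo4-2, while NRT2.1 itself was at 4 to 9 counts there. CLC-A, which loads nitrate into the vacuole, differed by -0.87 against wild type (adjusted p = 0.00111 by edgeR). These calls held in each alternative.

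Of 28 regulators of nitrate signalling, 5 rose and 4 fell in the double mutant against wild type (37.1% of all genes passed). TGA1, a factor of the root nitrate response, ran from 102 to 132 CPM in the double mutant and from 18.9 to 57.1 elsewhere (against cpr5 1.14, SE 0.242, adjusted p = 0.00779 by edgeR). CIPK23, the kinase that phosphorylates NRT1.1, ran from 104 to 151 CPM in the double mutant and from 43.8 to 72.8 elsewhere (against cpr5 0.89, adjusted p = 0.00686 by edgeR). HHO3, a repressor of the HHO family, differed by 0.85 against wild type (adjusted p = 0.00133 by edgeR). NLA, a ubiquitin ligase known to lower NRT1.7 protein, had means of 30.7, 29.1, 37.5 and 30.9 CPM in wild type, xpo4-2, cpr5 and the double mutant and passed in no tested comparison.

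BT2, a repressor of nitrate uptake genes, was the only regulator called in xpo4-2 against wild type, at 199, 151 and 119 CPM in wild type, 409 and 381 with xpo4-2 alone, 316, 235 and 277 with cpr5 alone, and 281, 368 and 314 with both mutations. Wild type lay below all mutant libraries, and the log2 fold change in xpo4-2 was 1.34 (SE 0.21, adjusted p = 0.0135 by edgeR), lost without either xpo4-2 library (0.0722 without replicate 1, 0.078 without replicate 2) and with only these groups (0.126).

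AMT1;1, a root ammonium transporter, was low in the xpo4-2 libraries, as NRT1.7 was, while its cpr5 libraries overlapped wild type. It had 123, 148 and 97 counts in the wild-type libraries, 23 and 24 in the xpo4-2 libraries, 114, 182 and 109 in the cpr5 libraries, and 222, 57 and 91 in those of the double mutant. Its log2 fold change in xpo4-2 against wild type was -2.6 (SE 0.566, adjusted p = 0.0392 by edgeR), lost without wild-type replicate 1 (0.051) or 2 (0.0944), without either xpo4-2 library (up to 0.204 without replicate 2), without any cpr5 library (up to 0.0668), with only these groups (0.125) and with limma on log2(TPM + 0.5) (0.0619, and 0.0823 without a filter). The rise in the double mutant against xpo4-2 (2.24, adjusted p = 0.0126 by edgeR) was lost without xpo4-2 replicate 1 (0.0731) or 2 (0.0802).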

How the data were processed

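Gene values are the deposited counts, whole numbers per gene and library that the authors did not normalise; TPM per transcript come from the authors' deposited second table, whose name credits kallisto with no version. HTSeq 0.6.1p1, HISAT2 2.0.4 and the TAIR10 build appear in the submitters' processing notes, which give no roles. The strand setting and the counting of reads shared by several genes are not given in the sources used here, and the counts may be rounded estimates. Replicates differed beyond sampling noise in each group (lowest chi-square per degree of freedom 11.6).

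The members and gene lists were chosen with earlier results of these data known. Groups came from sample titles; the design text speaks of triplicates, and 2 xpo4-2 libraries were analysed here. Counts were filtered with filterByExpr (21580 of 22160 genes kept), scaled with TMM and fitted in edgeR 4.0.16 (R 4.3.3) over all 11 libraries with a term per group; the threshold was a p under 0.05 after Benjamini-Hochberg adjustment over all genes tested. The SE of a log2 fold change is its size divided by the root of F. Standard alternatives were other scalings and filters, DESeq2 1.42.0, only the groups compared, a replicate block, leaving out each library, and limma 3.58.1 on log2(TPM + 0.5) or log2(TPM + 0.1). Transcripts needed at least 0.5 TPM in 2 libraries. The scripts were tested on simulated data.

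All members are named. From each nitrogen list, up to 4 genes that passed a comparison could be named, by smallest p. Also named were the 5 genes most like NRT1.7, the 2 least like it and 3 neighbours on each side. NLA, GLU2, GLT1, the NPF family and the assembled models were added after values were seen. Names and promoters are from RefSeq, TAIR10.1. No columns of other samples were present.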

Additional observations from a re-analysis of the deposited data

Results flagged for a closer look

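Apart from NRT1.7, these members and nitrogen genes had an effect of xpo4-2 that differed between the wild-type and cpr5 backgrounds, by edgeR's interaction test with Benjamini-Hochberg adjustment over 21580 genes. For NRT1.7 the difference was 10.87 on the log2 scale, from -6.81 in wild type to 4.06 in cpr5. It contains the cpr5 value that chose the gene and is given with no test. For NRT1.5 it was -2.81 (adjusted p = 0.00856 by edgeR), from 2.61 to -0.2. It too contains a cpr5 value against wild type, and results of that comparison were known when the members were taken.

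Among the assimilation genes the difference was -1.33 for GLN2 (adjusted p = 0.00555), -0.8 for UPM1 (0.0151), -1.08 for GLU1 (0.0254), -0.75 for GLN1;2, a cytosolic glutamine synthetase (0.031), -0.91 for NIR1 (0.0415) and 1.07 for RFNR1 (0.0423). Among regulators it was -0.87 for LBD39 (0.0153), -1.47 for BT1 (0.0248), -0.63 for LBD37 (0.0312) and -1.12 for BT2 (0.0358), and for the transporter NRT1.11 it was -1.61 (0.0413). The calls of NRT1.5 and GLN2 held in each alternative run for the interaction. The other 10 were lost in 4 to 13 of the alternatives, among them a single library left out, with an adjusted p of up to 0.179 (LBD37, with limma). The highest adjusted p without xpo4-2 replicate 1 was 0.168 for RFNR1, and it was 0.129 for NIR1, 0.127 for BT2 and 0.0967 for GLU1 there. Without xpo4-2 replicate 2 it was 0.148 for NRT1.11.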

How the results depend on the processing

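No called direction of a member turned in any alternative run. Members that passed were counted without 1 wild-type, cpr5 or double mutant library. Fits without an xpo4-2 library leave 1 library in that group, so they are not counted here. The calls of NRT1.5 or NIA2 in xpo4-2 against wild type were lost in those fits, as given above. In that comparison the members that passed numbered 2 to 5 (3 with all libraries, and 5 without double mutant replicate 3). In the double mutant against wild type they numbered 3 to 4 (5 with all libraries). Set beside cpr5 or xpo4-2, it had 2 to 3 (2 in each with all libraries). The interaction is not counted here, since that of NRT1.7 holds the value that chose it. The interaction needs all groups and has no fit of only the groups compared. With only the groups compared, they numbered 1 in xpo4-2 against wild type, and in the double mutant 5 compared with cpr5 and 1 compared with xpo4-2. With DESeq2 they numbered 4 in the double mutant against cpr5. Interactions of NRT2.5 (adjusted p = 0.0147) and NIA1 (0.0257) also passed by DESeq2. That of NIA2 passed by edgeR without wild-type replicate 3 (-0.77, adjusted p = 0.0251, and 0.139 with all libraries). Those of NRT1.8 and NIA1 passed by edgeR without double mutant replicate 3. The share of genes called in cpr5 against wild type, 6.64%, was 2.15% to 9.76% without 1 library and 11.8% with DESeq2. The cause of these moves was not tested, and the fits that leave libraries out also hold fewer of them.

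Replicate numbers share only a number: same-numbered libraries of different genotypes had correlations of -0.103 to 0.264 (median 0.000123, 15 pairs, 1 over 0.1). With the replicate block, the members that passed numbered 3 in xpo4-2 against wild type. In the double mutant they numbered 4 against wild type, 2 against cpr5 and 2 against xpo4-2. The share of genes called in cpr5 was 5.89% under the block, and the transcript of NRT1.7 in xpo4-2 differed by -6.01. The call of NRT1.8 in the double mutant was lost under the block (adjusted p = 0.0621). Without double mutant replicate 3 and without wild-type replicate 1, both chosen after seeing the data, the assimilation list had 8 and 6 genes higher and 4 and 4 lower in the double mutant against wild type (6 and 4 with all libraries), and the ammonium transporters 0 called (2 with all libraries). Without scaling, the all-gene median of the double mutant against wild type went from 0.032 to 0.321 on the log2 scale. The low counts of NRT2.1 and NRT2.5 limit what these libraries can show for them.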
